A study of Mus musculus with 30 samples.

Results

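mRNA pulled down with HA-tagged ribosomes of *Sox10*-lineage cells (*RiboTag*) was compared with total RNA of the small bowel *muscularis externa* (*ME*) 72 h after intestinal manipulation (IM72h), to ask which cell types the pulldown still enriched. The libraries were chosen by the group entry IM72h in the tables of both fractions, and genes were joined by symbol. These are 8 of the 30 samples of the series, 4 *RiboTag* and 4 *ME* libraries. All 8 carry the same genotype label, the tamoxifen-inducible Cre transgene Tg(Sox10-icre/ERT2)388Wdr/J on B6 together with the allele Rpl22tm1.1Psam/J on B6N.129. Adult male mice received tamoxifen before surgery, and the bowel was manipulated mechanically to evoke post-operative ileus. The 4 *RiboTag* and 4 *ME* libraries at 24 h (IM24h) carry the same line label and treatment at the earlier time. Of unoperated (naïve) mice, 3 *RiboTag* and 3 *ME* libraries were used. The labels list 4 naïve *RiboTag* samples, of which the count table used held 3. The naïve *ME* libraries carry a *Gfap*-Cre transgene, B6.Cg-Tg73.12Mvs/J, in place of the *Sox10* one, so that line and time cannot be told apart on the *ME* side of any comparison with naïve mice. The study lysed the *ME* of each mouse, took input controls from the lysate and counted animals as its replicates. Labels call the *ME* libraries inputs, so libraries of both fractions may come from the same mice. Nothing in the tables ties a *RiboTag* library to an *ME* library or either to a mouse, so libraries were treated as independent. The p-values measure the spread between these libraries.

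In *RiboTag* mice the HA tag is placed on the ribosomal protein RPL22 of cells in which Cre was active, and an antibody to HA then precipitates ribosomes with their bound mRNA from the lysate. *Sox10* is a transcription factor of the neural crest that enteric glia keep for life, and Schwann cells of nerve fibres and melanocytes also express it. Enteric glia surround the neurons of the myenteric plexus and are known by *S100b*, *Gfap* and *Sox10*. They make up a small part of the *ME*, which is mostly smooth muscle with fibroblasts, interstitial cells of Cajal, vessels and resident macrophages, joined after manipulation by monocytes and neutrophils. mRNA from tagged glia is therefore read against total RNA in which glial transcripts are rare. The ratio of pulldown to *ME* is called enrichment here and is read beside that of other genes.

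Ribosomal RNA took most of the pulldown counts. Its genes held 64.8% to 84.6% of estimated counts in the 4 *RiboTag* libraries and 2.97% to 4.59% in the 4 *ME* libraries, and were left out. This left 513286 to 1357540 counts in the pulldown and 9330757 to 12484143 in the *ME*. At a common depth of 513286 counts, 8047 to 10413 genes were detected in the pulldown and 15748 to 15896 in the *ME*, against 15277 to 16243 in the naïve pulldown. Over the 14013 tested genes, *RiboTag* libraries correlated with each other at a Pearson r of 0.425 to 0.503 on log2(CPM + 1), and *ME* libraries at 0.966 to 0.989. These are correlations across genes, which are not replicates. Of tested genes, 4427 (31.6%) had over 90% of their summed pulldown level in 1 library, whereas 10 did in the *ME*. *RiboTag* library 2 stood apart from the other 3. It had the lowest *S100b* and *Scn7a* and the highest summed smooth muscle and fibroblast levels, and the main results that it moves are also given without it.

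By edgeR's quasi-likelihood test with a Benjamini-Hochberg adjusted p under 0.05, 507 genes were higher in the pulldown than in the *ME* (3.62% of tested genes) and 3475 were lower (24.8%). The median log2 fold change of all tested genes was −0.79 after TMM scaling, which sets libraries to a common level by their middle genes. Library totals in place of TMM moved that median to −0.52, and scaling to *Actb*, *Hsp90ab1* and *Rplp1* to −1.74. Changes are therefore read beside the median of all genes. At an unadjusted p under 0.05 with more than 2-fold, 831 genes were higher (5.93%) and 4063 lower (29%). Without *RiboTag* library 2, 786 genes were higher and 6360 lower, of which 439 and 3467 were also called with all 8 libraries. Without an *ME* library the counts were 270 to 289 higher and 1819 to 1906 lower. Of the genes called lower, 1867 had no count in any of the 4 pulldown libraries. In each of the comparisons that follow, a lower level can come from fewer cells of a type, from less RNA per cell or from less of it being recovered in the pulldown, which cannot be told apart here.

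*S100b* carried the glial signal at IM72h. This gene (chr10:76253853-76261159, + strand, GRCm38) codes for the calcium-binding protein most used to stain enteric glia. Its level was 1831, 198, 1283 and 1844 CPM (each count relative to its TMM-scaled library size, ribosomal RNA left out) in *RiboTag* libraries 1 to 4 and 26.6, 36.0, 35.4 and 27.8 CPM in the *ME* libraries. All pulldown libraries lay above all *ME* libraries, and library 2 was the lowest of the 4. The means were 1289 ± 773 CPM (SD, n = 4) and 31.4 ± 4.93 CPM (SD, n = 4), 41.0-fold apart. edgeR gave a log2 fold change of 5.36 with an SE of 0.71 and an adjusted p of 0.00142. The exact two-sided permutation test on log2(CPM + 1) gave 0.0286, the smallest p that 4 against 4 libraries allow. Without library 2 the log2 fold change was 5.32.

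*Scn7a* (chr2:66673425-66784914, − strand), the sodium channel Nax of glia and Schwann cells, was the other glial marker called higher. It reached 370, 506 and 401 CPM in *RiboTag* libraries 1, 3 and 4 and 52.5 CPM in library 2, with 52.4 to 56.4 CPM in the *ME*. Library 2 lay within the *ME* range and the other 3 far above it. The log2 fold change was 2.61 (SE 0.65, adjusted p = 0.0150 by edgeR), and the exact permutation p was 0.114. The call was lost with scaling to the 3 reference genes, without *RiboTag* library 4 and without any 1 of the *ME* libraries.

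Of the enteric glia list, 2 genes were thus higher and 3 lower among the 14 of 20 that passed the filter on low counts, and 9 were not called, beside 3.62% higher and 24.8% lower of all tested genes. The list's median log2 fold change of −0.73 over these 14 genes was close to the −0.79 of all tested genes. With no filter on low counts the medians were −1.92 over all 20 list genes and −1.11 over all genes, with 7 list genes lower. With at least 10 counts in every library of a fraction they were −1.47 over 18 list genes and −0.95, again with 7 lower. Of the 20 genes 5 had no pulldown count, and their fitted values depend on the prior count of the fit. Summed over the 20 genes, the pulldown held 3023, 476, 2137 and 2559 CPM and the *ME* 441 to 633 CPM, so that 3 libraries lay above the *ME* and library 2 within its range. Without library 2, 2 list genes were higher and 9 lower among 19 tested, beside 786 higher and 6360 lower of all 15626 genes tested then. The list's fitted median was then −3.01 beside −1.88 for all genes. With genes without a pulldown count set at their bound of 3 counts over the 3 libraries, 7 of them in the list, the medians were −0.81 and −1.40, so that which of the 2 was lower depended on how such genes were counted.

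**Figure D1:**
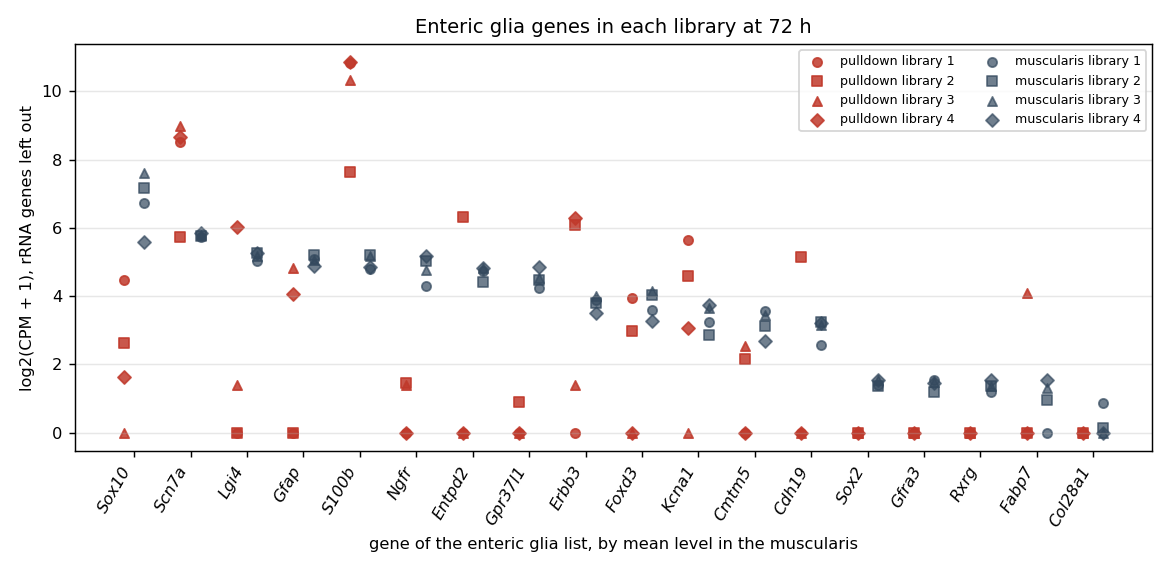
Level of 18 of the 20 enteric glia genes in each library at 72 h, as log2(CPM + 1) on the y axis, with genes on the x axis in the order of their mean *ME* level. Red symbols are the 4 pulldown libraries and dark symbols the 4 *ME* libraries. *S100b* is high in all 4 pulldown libraries, *Scn7a* is high in 3 of them, and many other genes lie at 0 in 2 or more pulldown libraries.

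None of the 4 transcription factors of the list was higher in the pulldown. *Sox10* itself, whose promoter drives the Cre, was at 21.2, 5.17, 0 and 2.11 CPM in the pulldown and at 106, 143, 196 and 47.5 CPM in the *ME*, with no overlap. Its log2 fold change was −4.07 (SE 1.21, adjusted p = 0.0341 by edgeR), from 33 counts in all 4 pulldown libraries together. The *Sox10* call was lost in limma voom and without *ME* library 1, 2 or 3. *Foxd3*, a neural crest factor, was at 14.4, 6.89, 0 and 0 CPM in the pulldown and 8.63 to 16.6 CPM in the *ME*, and its groups overlapped (adjusted p = 0.555). *Sox2*, a progenitor factor of the glial lineage, and *Rxrg*, a retinoid receptor, had no count in any pulldown library. Their *ME* levels of 1.59 to 1.95 CPM and 1.30 to 1.95 CPM were below the filter, and set against 3 counts over the pulldown libraries they were at least 2.33-fold and 2.12-fold lower there.

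Receptors and channels split. *Ngfr*, the low-affinity neurotrophin receptor p75, was at 0, 1.72, 1.62 and 0 CPM against 18.9 to 35.0 CPM in the *ME* (log2 fold change −5.08, adjusted p = 0.0107). *Gpr37l1*, an orphan receptor of glia, had a single count, in library 2, against 17.8 to 27.8 CPM in the *ME* (log2 fold change −6.37, adjusted p = 0.00228). For both genes every pulldown library lay below every *ME* library. *Erbb3*, the neuregulin receptor, was at 66.3 and 78.0 CPM in libraries 2 and 4 but at 0 and 1.62 CPM in libraries 1 and 3, around an *ME* range of 10.5 to 15.2 CPM. *Kcna1*, a voltage-gated potassium channel, ranged from 0 to 49.1 CPM around 6.24 to 12.5 CPM in the *ME*. *Gfra3*, the artemin co-receptor, had no pulldown count and was at least 2.19-fold lower. Neither *Erbb3* nor *Kcna1* passed the test.

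Adhesion and secreted proteins showed counts in 1 or 2 libraries at a time. *Entpd2*, the ecto-ATPase of enteric glia, was at 78.4 CPM in library 2 and at 0 in the other 3, with 20.3 to 27.6 CPM in the *ME*. *Cdh19*, a cadherin of the neural crest, was likewise at 34.5 CPM in library 2 and at 0 elsewhere, with 4.98 to 8.56 CPM in the *ME*. *Lgi4*, a secreted protein that glia need to ensheath axons, was at 64.3 CPM in library 4, 1.62 in library 3 and 0 in the others, with 31.8 to 37.6 CPM in the *ME*. None of the 3 was called. *Lgi4* was called lower in limma voom and without *RiboTag* library 4 (adjusted p = 0.00526 without it). Left without library 2, *Cdh19* had an edgeR log2 fold change of −8.47 (adjusted p = 0.00118) in place of 0.24, and *Entpd2* −10.2 (adjusted p = 0.000841) in place of −0.36. With no pulldown count left, these fitted values depend on the prior count of the fit. *Col28a1*, a collagen of peripheral glia, was at 0 in all pulldown libraries and in *ME* libraries 3 and 4.

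Among structural genes *S100b* was the 1 gene called higher. *Gfap*, the glial filament, was at 0, 0, 27.5 and 15.8 CPM, each below the *ME* range of 28.8 to 35.6 CPM, without passing the test (adjusted p = 0.530). *Cmtm5* lay at 0 to 4.85 CPM below 5.47 to 10.8 CPM in the *ME* (adjusted p = 0.184). *Fabp7*, a lipid-binding protein of immature glia, had counts in pulldown library 3 and in 3 *ME* libraries, at 16.2 CPM and up to 1.95 CPM. No overlap, in either direction, is not rare in these libraries, since 553 of the tested genes (3.95%) lay wholly above and 5285 (37.7%) wholly below the *ME*.

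The enrichment of glial genes differed from that at the earlier time points. In naïve mice 19 of 20 list genes were higher in the pulldown (13.5% of all tested genes were), with a list median log2 fold change of 3.37, and none was lower (11.5% of all genes). At IM24h 9 of 15 tested list genes were higher (5.53% of all genes) and none lower (5.86%), with a median of 2.47. In a test of the difference between IM72h and IM24h, the median difference over all tested genes was −0.75. Enrichment was lower at IM72h for 884 genes (5.48%) and higher for 60 (0.372%). Among 16 list genes tested, it was lower for 5, namely *Sox10*, *Sox2*, *Ngfr*, *Gpr37l1* and *Cmtm5*, and higher for none. Against naïve mice it was lower for 9 of 20 list genes and higher for none, beside 3430 (20.8%) and 368 (2.23%) of all genes, whose median difference was −0.98. These 2 tests share the IM72h libraries. The number of genes that differed from IM24h ran from 31 to 2412 lower and 3 to 208 higher as single libraries were left out, and limma voom called 0 lower and 1 higher.

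*Sox10* had the highest naïve fold change of the glial list and was below 0 at IM72h. Its log2 fold change was 5.80 in naïve mice, where the pulldown held 842, 1776 and 978 CPM against 19.7 to 24.3 CPM, and 2.28 at IM24h, and it was −4.07 at IM72h. The difference from naïve mice was −10.0 and that from IM24h −6.60, with adjusted p-values of 0.000501 and 0.0120. In the *ME* libraries at IM72h the *Sox10* level was above the naïve one in each of the 4, although the CPM of each time were scaled in a separate fit. *S100b* kept its fold, at 4.26 in naïve mice, 5.73 at IM24h and 5.36 at IM72h, and neither difference passed the test (−0.53 with adjusted p = 0.759 against IM24h, 0.88 with adjusted p = 0.482 against naïve). *Scn7a* was at 2.22, 2.40 and 2.61 on the same scale. *Gfap* went from 3.51 in naïve mice and 3.44 at IM24h to −1.60 at IM72h, a difference of −5.41 from naïve mice (adjusted p = 0.0239) that did not pass against IM24h (adjusted p = 0.0517).

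**Figure D2:**
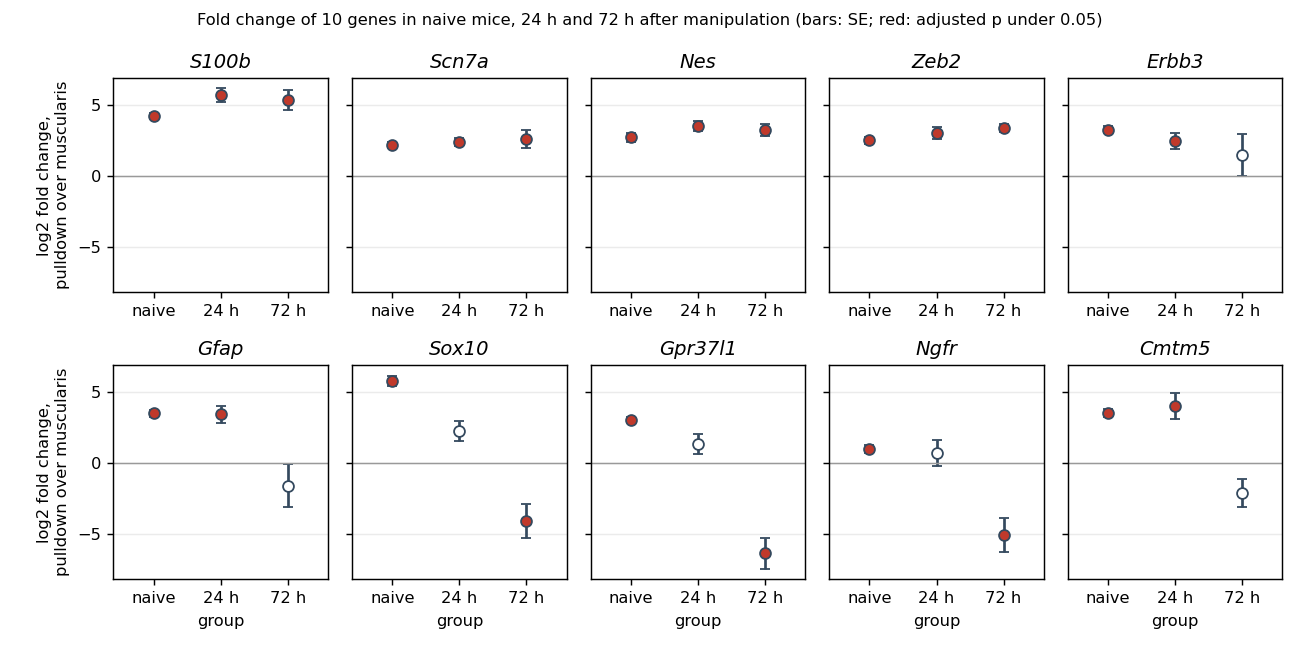
log2 fold change of the pulldown over the *ME* (y axis) of 10 genes in naïve mice and at 24 h and 72 h after manipulation (x axis), with bars for the SE and red symbols for an adjusted p under 0.05. *S100b*, *Scn7a*, *Nes* and *Zeb2* stay above 0 in each group, and *Sox10*, *Gpr37l1* and *Ngfr* are above 0 in naïve mice and at 24 h and below 0 at 72 h.

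A wider set was taken from the naïve libraries by fold alone, 717 genes more than 4-fold higher in the naïve pulldown at an adjusted p under 0.05. Of these, 527 passed the filter at IM72h, 81 (15.4%) were higher and 81 (15.4%) were lower, beside 3.62% and 24.8% of all tested genes. Their median log2 fold change was 1.14, beside −0.79. At IM24h 172 of 591 (29.1%) were higher and 1 was lower, with a median of 1.91. No count in any pulldown library was found at IM72h for 123 of the 717. Genes with a common name among them numbered 396, of which 319 were tested, 39 were higher and 48 lower, with a median of 0.76. The other 321 were predicted genes, clones and chemosensory receptors, of which 208 were tested, 42 were higher and 33 lower, with a median of 1.81. Members low in the *ME* passed the filter through a high pulldown level, so these shares are descriptions of the tested members.

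A set of 25 named genes was more than 4-fold higher both in naïve mice and at IM24h, and passed the test there and at IM72h. The set was chosen by these folds and calls, so a kept enrichment of its members follows in part from the choice. It held *S100b* and *Scn7a* and 23 genes outside the glial list, which were chosen after their values were seen, except *Nes*. *Nes* (chr3:87971078-87980451, + strand), the filament nestin of progenitors and reactive glia, was at 254, 287, 173 and 302 CPM in the pulldown and 22.6 to 30.5 CPM in the *ME*, library 2 included. Its log2 fold change was 3.29 (SE 0.42, adjusted p = 0.00141), and the enrichment did not differ from that at IM24h or in naïve mice by the test (adjusted p = 0.735 and 0.766). *Zeb2* (chr2:44983632-45117395, − strand), a repressor needed in neural crest and Schwann cells, was at 1138, 861, 1116 and 1332 CPM against 88.6 to 133 CPM, a log2 fold change of 3.40. The level of *Nes* and of *Zeb2* in library 2 was well above the *ME*, unlike that of *Scn7a*.

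The set was not tested for a shared role. Its *Metrn*, a secreted factor of glial differentiation, was at 400, 264, 85.7 and 283 CPM against 20.4 to 34.8 CPM. *Col11a1*, a fibrillar collagen, was at 114, 44.8, 146 and 164 CPM against 3.07 to 4.45 CPM, a log2 fold change of 4.92 with an adjusted p of 0.00143. In both genes library 2 lay above the *ME* range. The potassium channel *Kcna2*, the adhesion molecule *Cadm4* and the kinase *Aatk* had log2 fold changes of 2.29, 2.13 and 2.46, and each lost its call in 6 to 8 of 17 alternative analyses. Others were *Ap3b2*, *Ccdc36*, *Dennd4a*, *Eml5*, *Kif3a*, *Limch1*, *Myo18a*, *Prrt2*, *Rgs3*, *Safb2*, *Sez6*, *Timm22*, *Upf3b*, *Usp35* and *Zc3h13*, with log2 fold changes from 1.50 for *Myo18a* to 7.06 for *Ccdc36*.

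Of the lists of other cell types, those of neurons and smooth muscle had 1 gene higher each in the main fit and the others none. Neurons do not express *Sox10* in the adult bowel. Of 18 neuronal genes 1 was higher and 1 lower, beside 3.62% and 24.8% of all tested genes, and their median log2 fold change was −0.19. Without library 2, 4 of the 18 were lower, beside 6360 of 15626 of all genes. *Nefm*, a neurofilament, was at 96.6, 43.9, 58.2 and 1.05 CPM against 1.19 to 2.88 CPM (adjusted p = 0.0223), with overlapping groups and an exact permutation p of 0.143. The *Nefm* call was lost without any 1 of the *ME* libraries. *Slc18a3*, the vesicular acetylcholine transporter, had no pulldown count. *Uchl1*, a pan-neuronal hydrolase, was at 569, 611, 123 and 499 CPM around 250 to 370 CPM in the *ME*, with a log2 fold change of 0.53, and *Vip*, a transmitter, at 53.7 to 110 CPM around 67.3 to 104 CPM. Of myelinating Schwann cell genes 2 of 7 could be tested and of melanocyte genes 1 of 5, and none was called. Without library 2, 4 of 5 tested genes of myelinating Schwann cells were lower, where the filter was set again on the 7 libraries kept and 6360 of 15626 of all genes were lower. Interstitial cells of Cajal had 0 of 4 genes called, and *Kit*, their receptor, was at 0, 78.4, 22.6 and 0 CPM against 50.5 to 63.5 CPM.

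Smooth muscle genes were still abundant in the pulldown. Over the 12 genes the sum was 6801 to 29540 CPM in the pulldown and 35170 to 52560 CPM in the *ME*, and 1 gene was higher and 5 lower, beside 3.62% and 24.8% of all tested genes. *Acta2*, smooth muscle actin, was at 918, 2498, 267 and 936 CPM against 7233 to 11120 CPM, and its log2 fold change was −2.88. *Myh11*, smooth muscle myosin, did not differ by the test (log2 fold change 0.11, adjusted p = 0.906), at 2148, 6426, 1983 and 1747 CPM against 1960 to 4172 CPM. With library 2 left out *Myh11* was lower, at −0.93 with an adjusted p of 0.0326. *Lmod1*, the actin nucleator of smooth muscle, was higher at 1187 to 2253 CPM against 496 to 629 CPM (log2 fold change 1.78), and was not called with scaling to the 3 reference genes. The median of the list was −1.44 beside −0.79 for all genes. Without library 2, 1 of the 12 genes was higher and 8 were lower, beside 786 and 6360 of 15626 genes. The median was then −2.35 beside −1.88.

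In the main fit stromal and vascular lists had no gene higher. DESeq2 called 1 of 12 fibroblast genes and 2 of 11 blood endothelium genes higher, beside 1167 of 14013 genes. The lower counts of these lists are read beside the 24.8% of all tested genes that were lower. Fibroblast genes were lower in 4 of 12, with a median of −1.65. Their *Col1a1*, a fibrillar collagen, was at 453, 863, 300.9 and 231 CPM against 2349 to 2761 CPM, and *Lum*, a matrix proteoglycan, at 1.62 to 87.9 CPM against 342 to 447 CPM. Mural cell genes were lower in 2 of 5, among them *Rgs5* at 196 to 1033 CPM against 1865 to 2601 CPM. Blood endothelium was lower in 2 of 11, *Kdr* with no pulldown count and *Cdh5* with 1, which is no more than the share of all genes, and its median was 0.21 beside −0.79. *Flt1*, a receptor of VEGF, lay above the *ME* in all 4 libraries at 50.2 to 214 CPM against 31.4 to 40.2 CPM, without passing the test (adjusted p = 0.0994). Without library 2, 6 of the 11 blood endothelium genes were lower and 7 of the 12 fibroblast genes, beside 6360 of 15626 of all genes. The blood endothelium median was then −7.63 as fitted and −1.92 with its 6 genes without a count at their bound, beside −1.88 and −1.40 for all genes. Lymphatic endothelium had 0 of 5 called, mesothelium 2 of 5 lower and adipocytes 2 of 5 lower.

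Immune lists likewise had no gene higher in the main fit, while DESeq2 called 1 of 4 neutrophil genes higher. Resident macrophages were lower in 2 of 9, no more than the 24.8% of all genes, and recruited monocytes and repair macrophages in 3 of 7, with medians of −1.62 and −1.54. *C1qb*, a complement subunit of macrophages, was at 2.54, 27.6, 0 and 0 CPM against 468 to 556 CPM, whereas *C1qa*, which codes for its partner chain, was at 241 to 680 CPM against 590 to 896 CPM and was not called (adjusted p = 0.123). *C1qa* was called lower in 6 of 17 alternatives, among them without library 2, at −1.70 with an adjusted p of 0.00263. *Cd163*, *Fcgr1* and *Trem2* had no pulldown count, and *Ccr2*, the receptor of recruited monocytes, lay at 24.3 to 188 CPM around 99.1 to 121 CPM. The 3 tested genes of B and plasma cells were lower, with *Igkc* at 0 in all 4 pulldown libraries and 84.0 to 400 CPM in the *ME*, at least 322-fold lower. Of neutrophil genes 1 of 4, of T and NK cell genes 1 of 4 and of erythroid genes 1 of 4 were lower. The T and NK cell list had a median of 1.95, and its sum of 38.1, 35.3, 79.3 and 30.6 CPM lay above the 17.6 to 21.7 CPM of the *ME* in every pulldown library. Its *Lck*, *Cd3e* and *Cd2*, with log2 fold changes of 2.18, 2.08 and 1.82, had counts in 1 or 2 pulldown libraries each and did not pass the test (adjusted p = 0.394, 0.348 and 0.477). Mucosal epithelium, which is removed in preparation, was lower in 4 of 14, with *Muc2* at 0 and *Krt20* at a single count. Of pancreatic acinar and proliferation genes 0 of 2 and 0 of 10 were called, and no mast cell gene was in both tables.

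The gliosis genes named by the study are a list chosen on samples of this series and so no independent evidence of a direction. They gave 1 gene higher and 1 lower of 15, beside 3.62% and 24.8% of all tested genes. Without library 2 it was 1 higher and 4 lower of 16, beside 786 and 6360 of 15626 genes. *Nes* was the higher one. *Socs3*, an inhibitor of cytokine signalling, had counts in library 2 alone, at 4.31 CPM, against 61.8 to 118 CPM in the *ME*. *Vim*, an intermediate filament of glia and stroma, was at 100, 662, 107 and 46.4 CPM against 741 to 994 CPM and was not called (adjusted p = 0.132), while without library 2 it was lower at −3.68.

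**Figure D3:**
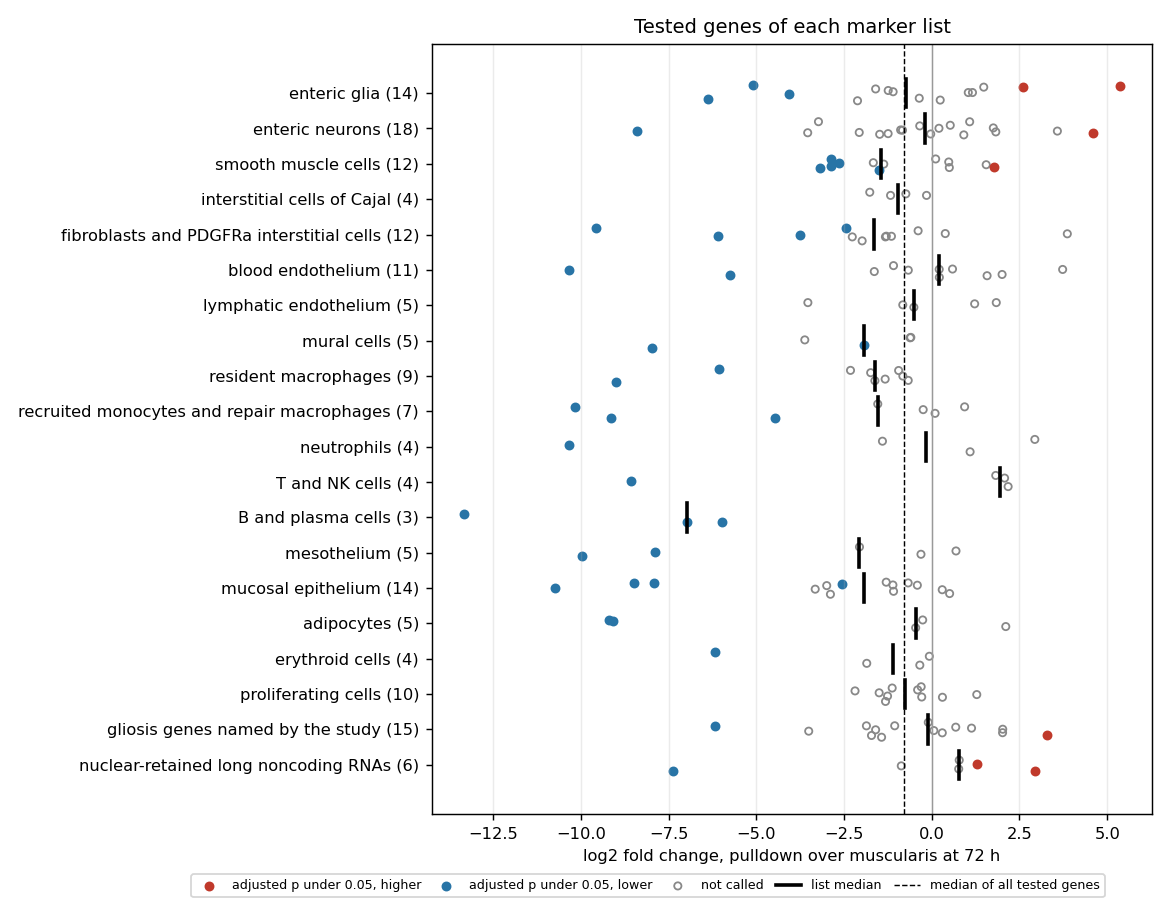
log2 fold change of the pulldown over the *ME* at 72 h (x axis) for the tested genes of each marker list (y axis, number tested in brackets). Red and blue symbols passed an adjusted p under 0.05, open symbols did not, thick bars are list medians and the dashed line is the median of all tested genes at −0.79. The red symbols of the enteric glia list are *Scn7a* at 2.61 and *S100b* at 5.36.

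Cytosolic ribosomal protein genes were lower in 34 of 84 and higher in 0, with a median of −2.24 beside −0.79 for all genes, of which 24.8% were lower. *Rpl22*, which codes for the tagged protein, was at 29.7, 125, 17.8 and 36.9 CPM against 233 to 262 CPM (log2 fold change −2.22, adjusted p = 0.0332). Mitochondrially encoded protein genes were lower in 9 of 13, with *mt-Nd4* at 836 to 3021 CPM against 23600 to 36100 CPM, and mitochondrial ribosomal protein genes were lower in 18 and higher in 1 of 79, no more than the share of all genes. Of the reference genes of the study, *Hsp90ab1*, a chaperone, was higher at 1.61 (adjusted p = 0.00154 by edgeR). *Actb* and *Rplp1* were at 0.64 and 0.65 without passing the test, and each was called higher in 4 of 17 alternatives. The difference between these genes was not tested. Scaled to their own mean, the reference genes lie around 0 by construction. *Actb* and *Rplp1* were then below 0 and *Hsp90ab1* was above it without passing the test.

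Genes were called higher at unequal rates among annotation classes. By annotation, 16 of 58 tested genes of small or structured RNAs were higher (27.6%), 62 of 447 pseudogenes (13.9%), 37 of 377 genes of the class TEC (9.81%), 37 of 594 long noncoding RNAs (6.23%) and 345 of 12386 protein-coding genes (2.79%). The shares called lower in the same order were 25.9%, 23.5%, 18.6%, 31.8% and 24.7%. Genes low in the *ME* passed the filter through a high pulldown level, so all these shares are descriptions of the tested genes. Nuclear long noncoding RNAs, which are not translated, had 2 of 6 higher and 1 lower. *Malat1*, the most abundant of them, was at 21720, 31810, 8341 and 10710 CPM against 1642 to 3326 CPM, a log2 fold change of 2.95 (adjusted p = 0.00196). *Kcnq1ot1* was at 330 to 430 CPM against 137 to 214 CPM, and its call was lost in 8 of 17 alternatives. *Rn7s1*, the RNA of the signal recognition particle and chosen after its values were seen, was at 161, 989, 880 and 611 CPM against 3.60 to 5.81 CPM. Its near-identical copy *Rn7s2* had the same values, so the reads of the 2 cannot be assigned.

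Chemosensory receptor genes, which code for receptors of the nose, were higher than in the *ME* in sum. The 107 olfactory receptor genes of both tables held 1009 to 2669 CPM in the pulldown and 62.0 to 73.5 CPM in the *ME*, and the 72 vomeronasal receptor genes 1190 to 2476 CPM and 28.5 to 32.7 CPM. Few had enough counts to test, and those that had were mostly the ones high in the pulldown, so that 9 higher of 14 and 9 higher of 10 are descriptions. In naïve mice 5 of 11 tested olfactory and 2 of 5 vomeronasal receptor genes were higher, and at IM24h 4 of 16 and 2 of 9. Of all tested genes 13.5% and 5.53% were higher there. Enrichment at IM72h was above that at IM24h for 0 of 46 olfactory and 1 of 39 vomeronasal receptor genes. It was above that in naïve mice for 2 of 42 and 7 of 39. *Vmn2r113* was at 220, 217, 264 and 272 CPM against 0 to 0.474 CPM, and *Olfr344* at 40.7 to 117 CPM against 0.423 to 1.70 CPM. *Vmn1r179* and *Vmn2r31* were of the same kind, and receptors of these families have close paralogs among which reads may be split. *Lars2*, the mitochondrial leucyl-tRNA synthetase and chosen after its values were seen, was at 1580 to 3423 CPM against 14.2 to 19.1 CPM, a log2 fold change of 7.33. Its enrichment was above that at IM24h by 2.70 (adjusted p = 0.0129). The naïve pulldown held 2019, 568.6 and 51.75 CPM of *Lars2* in libraries of 15.99%, 5.987% and 4.768% ribosomal RNA. The IM24h pulldown held 786.1, 3098, 3394 and 2642 CPM in libraries of 26.7%, 65.3%, 62.2% and 36.3%. Whether the ribosomal RNA share had a part in the level of *Lars2* was not tested.

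A group of 11 predicted genes held 2.01% to 10.6% of the pulldown counts. They were chosen after their values were seen, by sharing at least 20% of their 20-base words with a block of repeats on chromosome 9. Their reads may be split among near-identical copies, so single values are uncertain and the sum is used. Summed, they were at 97750, 23050, 83770 and 64610 CPM in the 4 pulldown libraries and at 62.3, 129, 97.6 and 41.7 CPM in the *ME*. Library 2 was again the lowest of the pulldown, and still far above the *ME*. At IM24h the pulldown held 643, 13010, 29040 and 2183 CPM, with the high values in the 2 libraries of 65.3% and 62.2% ribosomal RNA and the low ones in those of 26.7% and 36.3%. In naïve mice it held 1589 to 2189 CPM against 144 to 268 CPM in the *ME*. At IM72h libraries 1 to 4 had 64.9%, 64.8%, 84.6% and 71.4% ribosomal RNA, and the group held 9.53%, 2.01%, 10.6% and 7.46% of their other counts. The part of the ribosomal RNA share in the result was not tested.

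*Gm10800* made up the largest share of the group, at 66940, 15730, 57310 and 43760 CPM against 23.5 to 75.9 CPM. Its locus (chr2:98666547-98667301, − strand, GRCm38) is a tandem repeat in which a base matched the one 234 bases downstream at 67.2% of positions, against a median of 30.7% at other offsets from 20 to 300. The first repeat unit is shown to let a reader see it, with capitals for bases that match the unit that follows (225 of 234) and lower case for the others, from the reference genome at chr2:98666547-98666780, + strand.
Gm10800: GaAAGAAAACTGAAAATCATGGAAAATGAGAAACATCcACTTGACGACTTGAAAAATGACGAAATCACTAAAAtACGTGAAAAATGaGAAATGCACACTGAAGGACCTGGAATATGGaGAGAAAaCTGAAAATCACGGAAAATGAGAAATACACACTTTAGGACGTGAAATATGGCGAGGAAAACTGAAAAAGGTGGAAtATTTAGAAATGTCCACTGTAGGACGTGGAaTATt

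**Figure D4:**
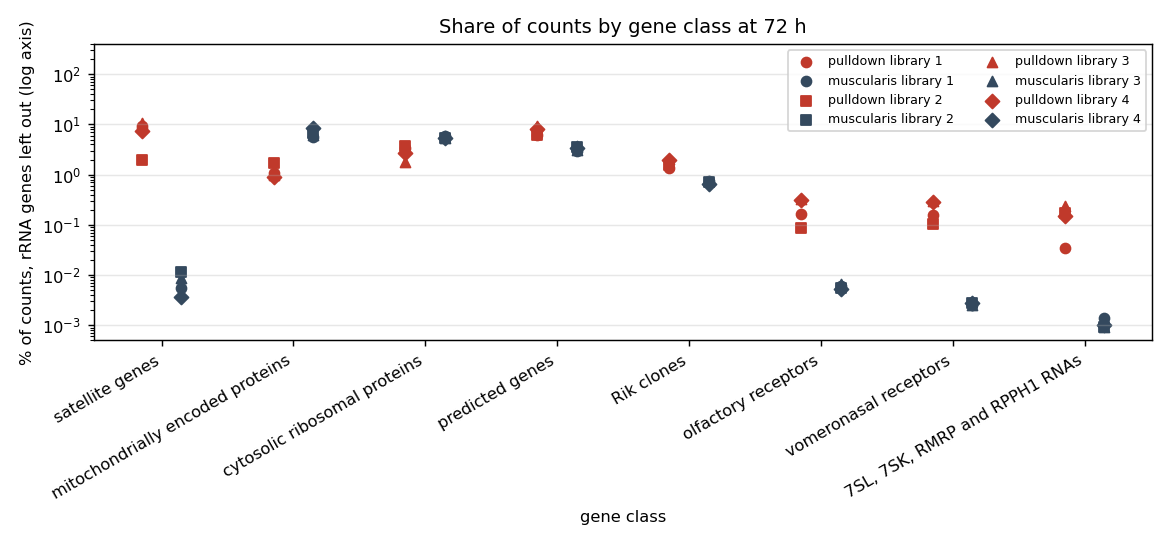
Share of counts (%, log axis, ribosomal RNA left out) of 8 gene classes (x axis) in each library at 72 h, red for the 4 pulldown and dark for the 4 *ME* libraries. The satellite genes, the 11 predicted genes that share repeat words, take 2.01% to 10.6% of pulldown counts and at most 0.0115% of *ME* counts, and mitochondrially encoded proteins take 0.889% to 1.69% and 5.51% to 8.46%.

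Coding sequences rich in A were more frequent among genes called higher. The library kit primes reverse transcription with oligo(dT), which anneals to the poly(A) tail and can also anneal to A-rich stretches. A window of 20 bases with at least 14 A was present in the coding sequence of 132 of 335 genes called higher (39.4%), of 1776 of 8990 genes not called (19.8%) and of 289 of 3061 genes called lower (9.44%). Coding sequences of genes called higher were also longer, with medians of 2328, 1459 and 1209 bases in the 3 classes. Within each of 4 classes of coding length the order was the same, from 14.3%, 9.65% and 4.55% below 1000 bases to 58.6%, 43.7% and 25.5% at 4000 bases and over. Genes were classed by this same comparison, so the shares are a description with no test, and whether A-rich stretches had a part in any fold change was not tested.

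The richest window of *S100b* held 10 A, as did that of *Sox10*, whereas *Scn7a* held 14, *Zeb2* 14 and *Nes* 15. Of the glial list, *Scn7a* was the 1 gene at 14 or more. Over the genes enriched at all 3 times the richest window ran from 9 A in *Metrn* and *Sez6* to 16 A in *Kif3a*. The windows of *S100b*, *Sox10* and 3 genes that kept their enrichment are shown as examples of this range, and with them those of *Hsp90ab1*, the reference gene that was higher, and of *Rbm25*, a splicing factor chosen after its values were seen (log2 fold change 2.40). They are written in the sense of the mRNA with A in capitals and lie at chr10:76257104-76257123 (*S100b*, + strand), chr15:79163541-79163560 (*Sox10*, − strand), chr2:66737414-66737433 (*Scn7a*, − strand), chr3:87976162-87976181 (*Nes*, + strand), chr2:44996398-44996417 (*Zeb2*, − strand), chr17:45570403-45570422 (*Hsp90ab1*, − strand) and chr12:83664000-83664019 (*Rbm25*, + strand), each within 1 coding exon.
S100b: gAcAAgcAcAAgctgAAgAA
Sox10: AAggtcAAgAAggAAcAgcA
Scn7a: AgAAgAAAAtgAAAAtgAAA
Nes: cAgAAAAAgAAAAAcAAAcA
Zeb2: ccAcAAAgAAcAAAAcAAAA
Hsp90ab1: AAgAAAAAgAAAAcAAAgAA
Rbm25: AAAAAAgAAAAAgAAAgAcA

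**Figure D5:**
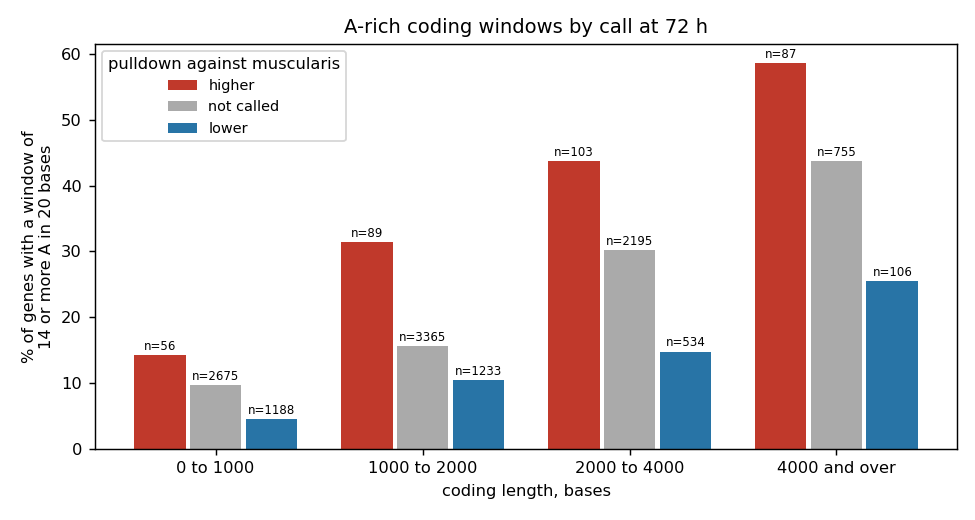
Share of protein-coding genes (%, y axis) with at least 14 A in a window of 20 coding bases, by coding length (x axis) and by call at 72 h, with the number of genes above each bar. In each length class the bar of genes higher in the pulldown is above that of genes not called, and that of genes lower in the pulldown is the shortest, from 4.55% to 25.5%.

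The extremes of the comparison were of the same 2 kinds. The 10 genes with the largest fold changes and no overlap were *Gm49346*, *Gm24270*, *Gm15564*, *Gm48743*, *Gm23935*, *Gm24245*, *Gm10722* and 3 vomeronasal receptor genes. *Gm49346* was at 88.1, 700, 479 and 87.5 CPM in the pulldown and had no *ME* count. At the other end lay genes with no pulldown count and a solid *ME* level. *Arl1*, a GTPase of the Golgi, was at 170 to 200 CPM in the *ME* and at least 241-fold lower in the pulldown. *Rasl11b*, *Optc*, *Plpp1*, *Selenok*, *Fhl1* and *Stab1* were at least 188-, 184-, 167-, 151-, 150- and 125-fold lower. Against IM24h the largest losses among named genes were those of *Msto1*, *Pcgf2* and *Ddx56*, each without a pulldown count at IM72h, and the largest gain was that of *Acss3*, at 0, 58.6, 53.4 and 124 CPM against 0 to 0.649 CPM. *Acss3* had no count in the IM24h pulldown, and the fitted differences of these 4 genes depend on the prior count.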

How the data were processed

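RNA of the small bowel *ME* had been sequenced by the authors with a QuantSeq 3′ kit (single-end 50 bp) and aligned with STAR 2.5.3 to mm10 in Partek Flow after trimming (cutadapt, per the labels). The deposited values are estimated counts, which the authors made per transcript (*RiboTag*) and per gene (*ME*) without scaling. Transcript values were added up per gene symbol, and sums were rounded to whole numbers. Lines of the tables are libraries. Their names match no sample label, so groups were mapped as a whole from the group entry and libraries numbered in name order.

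The 4 rRNA genes AY036118, CT010467.1, mt-Rnr1 and mt-Rnr2 were left out. Of 19764 genes in both tables, 14013 passed filterByExpr and were tested with edgeR 4.0.16 (TMM, quasi-likelihood, two-sided, Benjamini-Hochberg adjusted p under 0.05; R 4.3.3, limma 3.58.1, DESeq2 1.42.0). Differences in enrichment were interaction terms. Single genes were also tested with an exact permutation test on log2(CPM + 1). The floor for genes without counts is 3 counts over the 4 libraries of a fraction, 0.768 CPM in the pulldown, which covers counting error only. The test was checked on simulated data.

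Members and lists were chosen with earlier results of these data known. Named genes are the enteric glia list, in each other list up to 4 genes of highest level and any called gene, the 10 largest changes each way without overlap, the 5 largest interactions each way against 24 h, and the reference genes and *Rpl22*. Others are said to be chosen after their values were seen. Some genes under these rules are not reported here singly. Alternatives were other scalings, filters, tools and gene sets, and single libraries left out. Coordinates and coding sequences are those of GENCODE M21 (GRCm38), which matched 13867 of the tested genes.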

Additional observations from a re-analysis of the deposited data

Results flagged for a closer look

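Of 236 groups of 4 values examined, 27 held a library far from the other 3 by Dixon's criterion, 18 of them in the pulldown. Chance alone gives about 1 in 20 groups where values are normally distributed. This was not checked for these sparse CPM, so the rate is no benchmark here. In 9 of the 18 pulldown groups the other 3 libraries were at 0, and any count stands apart. In *RiboTag* library 2, *Myh11* (6426 CPM), *Vim* (662 CPM), *Entpd2* (78.4 CPM), *Cdh19* (34.5 CPM), *C1qb* (27.6 CPM) and *Socs3* (4.31 CPM) were far above the other 3 libraries. The same library held the sole counts of *Ighm* (1.72 CPM) and of *Gpr37l1*, *Cdh5*, *Jchain* and *Krt20*, at 0.861 CPM each. Its summed level of recruited monocyte and repair macrophage genes, 290 CPM, also stood apart. Elsewhere in the pulldown *Lgi4* stood out in library 4 (64.3 CPM), *Fabp7* (16.2 CPM) and *Vmn1r179* (288 CPM) in library 3 and *Gm10722* in library 1 (1108 CPM), as did the sums of T and NK cell genes in library 3 (79.3 CPM) and of B and plasma cell genes in library 1 (20.3 CPM).

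The *ME* held fewer such values. Library 4 differed in *Aatk* (49.0 CPM), *Slc18a3* (12.2 CPM), *C1qa* (590 CPM) and *Gm15564* (0.186 CPM), library 2 in *Neat1* (569 CPM) and library 1 in *Col28a1* (0.830 CPM), *Vmn2r113* (0.474 CPM), *Vmn2r31* (0.119 CPM) and the sum of recruited monocyte and repair macrophage genes (283 CPM).

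Enrichment, the log2 fold change of the pulldown over the *ME*, differed between IM72h and the other groups in the interaction test of edgeR for these genes. Minus that at 24 h it was −6.60 for *Sox10*, −8.71 for *Sox2*, −6.03 for *Ngfr*, −7.93 for *Gpr37l1* and −6.33 for *Cmtm5*. Minus that in naïve mice it was −10.0 for *Sox10*, −9.62 for *Sox2*, −8.53 for *Rxrg*, −6.31 for *Ngfr*, −9.96 for *Gfra3*, −9.57 for *Gpr37l1*, −5.41 for *Gfap* and −5.91 for *Cmtm5*. *Sox2*, *Rxrg* and *Gfra3* had no pulldown count at IM72h, so their fitted differences depend on the prior count and are no measure of size. *Cadm4* kept an enrichment that was lower by −2.94 and −2.25 in the same order. *Lars2* was above 24 h by 2.70 and above naïve mice by 4.50, and *Gm10800* above naïve mice by 6.27. *Msto1* (−11.97 and −12.94), *Pcgf2* (−11.64 and −10.99) and *Ddx56* (−11.54 and −10.72) also had no pulldown count, and *Acss3* was at 12.43 and 6.79, with 1 pulldown library at 0 at IM72h and all 4 at 0 at 24 h, so that the first value is likewise no measure of size. What underlies the larger spread of the pulldown, and how far library 2 or the ribosomal RNA share moves with these values, was not tested.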

How the results depend on the processing

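No paired analysis was possible because the names of the libraries in the tables carry no replicate number. The sample labels number inputs and pulldowns alike, but no library in the tables could be matched to a label. Of the 62 named genes called at IM72h, 46 kept their call in each of 17 alternatives and 16 lost it in 1 or more. Of the 18 not called, 11 were called in 1 or more alternatives. Among these were *Gfap* and *Kit*, lower in limma voom, and *Cmtm5*, lower in DESeq2. *S100b* ran from 4.46 to 5.75 on the log2 scale and kept its call in all 17. Scaled to *Actb*, *Hsp90ab1* and *Rplp1*, 266 genes were higher at IM72h, 414 at an unadjusted p and 2-fold, and 11 higher and 84 lower in enrichment against 24 h, and 1 enteric glia gene was higher. DESeq2 called 1167 higher and 1369 at the unadjusted rule, 394 higher and 1595 lower against 24 h, and 977 higher against naïve mice. limma voom called 540 higher and 6441 lower at the unadjusted rule, 1 higher and 0 lower against 24 h, and 232 higher against naïve mice. Without a filter on low counts 1963 were higher at the unadjusted rule and 7 enteric glia genes lower, as many as with at least 10 counts in every library of a fraction. Against 24 h 335 genes were lower with library totals and 563 with rRNA genes kept. The causes were not tested.

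Leaving out single libraries gave 270 to 866 genes higher and 1819 to 6360 lower at IM72h, and 621 to 1272 and 2425 to 6921 at the unadjusted rule. Against 24 h it gave 3 to 208 higher and 31 to 2412 lower, and against naïve mice 270 to 629 higher and 2847 to 5518 lower. Enteric glia genes were higher in 1 to 2 cases and lower in 2 to 9. The most genes were lower without *RiboTag* library 2, and the fewest against 24 h without the first *ME* library of 24 h (3 higher, 31 lower). *Cdh19* ran from −8.47 without *RiboTag* library 2 to 0.56, and *Myh11* from −0.93 without it to 0.19. With an arm of 3 libraries the filter let 10968 to 15646 genes through. Depth limits the pulldown, where 3 counts over the 4 libraries are 0.768 CPM.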

Other observations

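Of 1090 predicted genes tested, 118 were higher and 274 lower in the pulldown, and of 414 clones with a Rik symbol 23 were higher and 115 lower. Of all tested genes 3.62% were higher and 24.8% lower. The medians were 0.51 and 0.12 on the log2 scale, beside −0.79 for all tested genes. The members tested are part of the 3960 predicted genes and 931 clones in both tables. Those low in the *ME* passed the filter through a high pulldown level, so the counts and medians describe the tested genes alone. Of 2 replication-dependent histone genes tested, neither was called. *Neat1*, a nuclear long noncoding RNA of paraspeckles, was at 998, 1637, 657 and 106 CPM in the pulldown around 471 to 569 CPM in the *ME*, and was not called. *Ncl*, which codes for nucleolin and was chosen after its values were seen, was at 1765 to 2773 CPM in the pulldown and 175 to 237 CPM in the *ME*, with a log2 fold change of 3.46 (adjusted p = 0.00141 by edgeR). In naïve mice the fold change of *Ncl* was 0.22 (adjusted p = 0.329), and the difference between the 2 was 3.03 (adjusted p = 0.000492).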
